A study of Mus musculus with 5 samples.

Results

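The genes measured here encode 10 subunits of the Polycomb repressive complexes of mouse ESCs, Ezh2, Eed, Suz12, Jarid2, Mtf2, Ring1, Rnf2, Cbx7, Phc1 and Bmi1. They were chosen by name, and every probe on the array that carries one of these names was taken, 21 of the 41174 probes. Each gene had between 1 and 4 probes. The signal was measured in 5 ESC lines on one-colour Agilent arrays, 1 for each line. Of these, 2 lines were wild type, RF8 (129sv origin, male) and #620-2 (C57BL6/129sv origin, female). The ECAT11EGFP/EGFP group held 3 lines of C57BL6/129sv origin, #620-6 (female), #757-1 and #757-2 (both male). In these 3 lines both alleles of ECAT11 carry EGFP and a puromycin resistance gene in place of the coding region. RF8 is an older line in which the gene was first targeted, and the other 4 lines were established during the study from blastocysts of crosses between heterozygous mice, at first on SNL feeder cells. All were grown with LIF and serum on gelatin for the arrays. Line, strain background and sex label therefore differ within and between the groups, and the lines are the only replicates, so every p-value measures the spread between lines. No probe on the array is named ECAT11, and its own transcript is not analysed here.

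Polycomb proteins keep developmental genes silent through 2 chromatin marks. PRC2 methylates lysine 27 of histone H3, with Ezh2 as its enzyme and with Eed and Suz12 as the core subunits that the enzyme needs. PRC1 attaches ubiquitin to histone H2A through a RING pair, Ring1 or Rnf2 joined to a PCGF protein such as Bmi1, and its canonical forms add a CBX reader of the methyl mark and a PHC subunit. Jarid2 and Mtf2 help to bring PRC2 to CpG islands. In ESCs, Cbx7 is the main CBX reader and the complexes cover many promoters of lineage regulators. ESCs that lack PRC2 still self-renew but differentiate poorly.

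The probes are 60 bases long, and what a probe reports depends on which part of the transcript it covers. The sequences below are a selection of the probes that cross an exon junction of a member or hold a reading frame free of stop codons. Other member probes that meet this rule are not printed. The last sequence is shown because it gave no measurable signal. Positions are those in the files (mouse build mm7), and no genome of that build was used to check them. A probe whose position covers more than its own 60 bases crosses an intron. The Ezh2 probe lies at chr6:47568744-47569639 and the Eed probe at chr7:85913246-85916155, both on the minus strand and both across an intron. Of the 4 Mtf2 probes, 3 cross an intron, and those at chr5:107258308-107258480 and chr5:107276490-107278175 on the plus strand are printed. The others printed are the second Suz12 probe (chr11:80095051-80095110, plus strand), the second Ring1 probe (chr17:32100231-32100290, minus strand), the second Rnf2 probe (chr1:151404443-151404502, minus strand) and the last Phc1 probe (chr6:122348118-122348177, minus strand), each free of stop codons in at least 1 reading frame. The last sequence is the Jarid2 probe that was not well above background on any array. It lies at chr13:44334556-44334615 on the plus strand, about 35 kb before the other Jarid2 probes, and was designed on another cDNA than theirs. All letters are in lower case, 5′ to 3′.
Ezh2: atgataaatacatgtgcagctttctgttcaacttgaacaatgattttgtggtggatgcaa
Eed: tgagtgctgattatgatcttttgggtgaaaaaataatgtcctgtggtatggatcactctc
Suz12, probe 2: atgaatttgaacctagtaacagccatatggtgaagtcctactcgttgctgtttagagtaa
Mtf2, probe 4: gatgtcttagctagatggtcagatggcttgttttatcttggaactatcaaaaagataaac
Mtf2, probe 2: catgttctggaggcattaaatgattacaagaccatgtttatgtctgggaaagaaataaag
Ring1, probe 2: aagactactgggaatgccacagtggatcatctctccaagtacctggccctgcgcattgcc
Rnf2, probe 2: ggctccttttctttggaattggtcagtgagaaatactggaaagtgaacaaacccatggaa
Phc1, probe 3: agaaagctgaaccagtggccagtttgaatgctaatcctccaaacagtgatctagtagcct
Jarid2, probe 3: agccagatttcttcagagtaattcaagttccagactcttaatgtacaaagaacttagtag
Probes of members and of their close relatives shared little sequence, though binding of one transcript to the other's probe was not tested. Over 10 pairs of related genes, among them Ezh2 with Ezh1, Ring1 with Rnf2, Bmi1 with Pcgf2 and Cbx7 with Cbx2, Cbx6 and Cbx8, the longest run of letters that a member's probe shared with a relative's probe was between 5 and 8 bases.

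Signals are given as the log2 of the background-corrected intensity minus the log2 of the 75th percentile of the same array, so that a value of 1 is a signal 2-fold above that percentile. The probes of a gene are numbered from the brightest. Probes differ in how well they bind, so values are compared between lines for 1 probe and never between probes. Of the 21 probes, 19 were well above background on all 5 arrays. One Bmi1 probe missed it in #757-2 and 1 Jarid2 probe missed it everywhere, and that probe is left out of what follows. RF8, #620-2 and #620-6 shared 1 scan identifier, and #757-1 and #757-2 shared another. Each identifier is taken here as 1 slide, which the sample labels do not name. Fewer probes were well above background on the second slide, 21242 and 22044 against 26362 to 27135. All 7 ESC markers checked, Pou5f1, Nanog and Sox2 among them, were well above background in every line, with a summed signal of 422 to 534 times the 75th percentile. Markers of other cells were not at 0. The 7 fibroblast markers summed to 16.2 and 57.6 in the wild-type lines and to 2.54 to 60.3 in the ECAT11EGFP/EGFP lines, and were highest in #620-2 and #620-6. The 6 primitive endoderm markers stayed between 0.559 and 1.35, with 4 to 6 of them well above background. The 6 trophoblast markers summed to 6.10 and 6.54 in the wild-type lines against 14.2 to 15.9 in the ECAT11EGFP/EGFP lines, with 4 to 6 well above background. The brightest genes weigh most in such sums. Of the 7 trophoblast probes kept, 5 had a higher and 2 a lower mean in ECAT11EGFP/EGFP. Whether such cells had a part in any result below was not tested.

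Of the PRC2 core, Ezh2 differed least between the lines and Suz12 most. In these bulk samples, fewer cells that express a gene and less RNA per cell cannot be told apart. Ezh2, the methyltransferase, had a signal of 3.15 in RF8, 3.35 in #620-2, 3.18 in #620-6, 3.37 in #757-1 and 3.31 in #757-2. The lines thus lay within 0.22 of each other and the genotypes overlapped. Eed, which binds the methyl mark and activates the enzyme, had 4.16 in RF8, 4.76 in #620-2, 4.46 in #620-6, 4.55 in #757-1 and 4.34 in #757-2. Both extremes of Eed were wild-type lines, 0.59 apart. Suz12, the scaffold on which PRC2 assembles, had 3.78 in RF8, 3.49 in #620-2, 4.40 in #620-6, 3.80 in #757-1 and 4.27 in #757-2 with its brighter probe. The 3 ECAT11EGFP/EGFP lines were all above the wild-type lines, though #757-1 by only a small margin over RF8. The second Suz12 probe, about 20 kb away in the gene and printed above, read 1.69 in RF8, 1.34 in #620-2, 2.19 in #620-6, 1.36 in #757-1 and 1.81 in #757-2. With this probe #620-6 was again highest but the groups overlapped.

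Both subunits that bring PRC2 to its targets were highest in #620-6. Jarid2, a PRC2 partner with an inactive demethylase fold, had 4.76 in RF8, 4.74 in #620-2, 4.90 in #620-6, 4.49 in #757-1 and 4.46 in #757-2. Its other measured probe had 1.91 in RF8, 2.55 in #620-2, 2.71 in #620-6, 2.17 in #757-1 and 2.22 in #757-2. Both put #620-6 highest, but they placed RF8 differently, above #757-1 and #757-2 with the first and below all other lines with the second. Mtf2 is a Polycomb-like protein that binds CpG-rich DNA. Its brightest probe had 5.01 in RF8, 4.87 in #620-2, 5.49 in #620-6, 4.84 in #757-1 and 5.05 in #757-2. The probe numbered 2 had 4.81 in RF8, 4.84 in #620-2, 5.43 in #620-6, 4.79 in #757-1 and 4.97 in #757-2. All 4 Mtf2 probes, which span 28.0 kb of the gene, put #620-6 highest, and their ranges over the lines were close to each other, 0.63 to 0.66. The probe numbered 3 had 4.52 in RF8, 4.53 in #620-2, 5.19 in #620-6, 4.67 in #757-1 and 5.01 in #757-2. It was the only Mtf2 probe whose genotype groups did not overlap. The probe numbered 4 had 3.53 in RF8, 3.52 in #620-2, 4.09 in #620-6, 3.46 in #757-1 and 3.66 in #757-2.

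Among the PRC1 genes, the ubiquitin ligase Rnf2 (RING1B) hardly moved. Its brighter probe had 2.90 in RF8, 3.12 in #620-2, 3.13 in #620-6, 3.11 in #757-1 and 3.06 in #757-2. The second had 1.46 in RF8, 1.79 in #620-2, 1.78 in #620-6, 1.49 in #757-1 and 1.58 in #757-2. RF8 was the lowest line with both. Ring1 (RING1A), the ligase that can stand in for Rnf2, had -2.89 in RF8, -2.87 in #620-2, -3.31 in #620-6, -2.46 in #757-1 and -2.69 in #757-2. Its second probe had -3.12 in RF8, -2.89 in #620-2, -3.51 in #620-6, -2.85 in #757-1 and -2.71 in #757-2. With both Ring1 probes #620-6 was lowest and #757-1 and #757-2 were the highest lines, so the ECAT11EGFP/EGFP group held both extremes.

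Cbx7, the reader of the methyl mark, had 3.22 in RF8, 3.18 in #620-2, 2.62 in #620-6, 3.19 in #757-1 and 3.1 in #757-2. Line #620-6 was lowest and the other 4 lines were nearly level. Phc1, a polyhomeotic subunit that lets PRC1 polymerize, had 4.48 in RF8, 4.65 in #620-2, 4.28 in #620-6, 4.41 in #757-1 and 4.38 in #757-2 with its brightest probe. The second had 4.16 in RF8, 4.15 in #620-2, 3.95 in #620-6, 4.13 in #757-1 and 4.13 in #757-2. With each of the 3 Phc1 probes the ECAT11EGFP/EGFP lines lay below both wild-type lines, by small amounts. The dimmest, printed above, had 1.11 in RF8, 1.36 in #620-2, 0.78 in #620-6, 0.86 in #757-1 and 0.85 in #757-2. Bmi1 (PCGF4), a PCGF partner in canonical PRC1, varied most, with -3.53 in RF8, -2.80 in #620-2, -1.83 in #620-6, -2.55 in #757-1 and -3.08 in #757-2. RF8 was lowest and #620-6 highest, a 3.25-fold span. The second Bmi1 probe had -4.56 in RF8, -3.75 in #620-2, -3.20 in #620-6, -3.18 in #757-1 and, not well above background, -4.21 in #757-2. It repeated the low value of RF8 but put #757-1 level with #620-6.

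**Figure D1:**
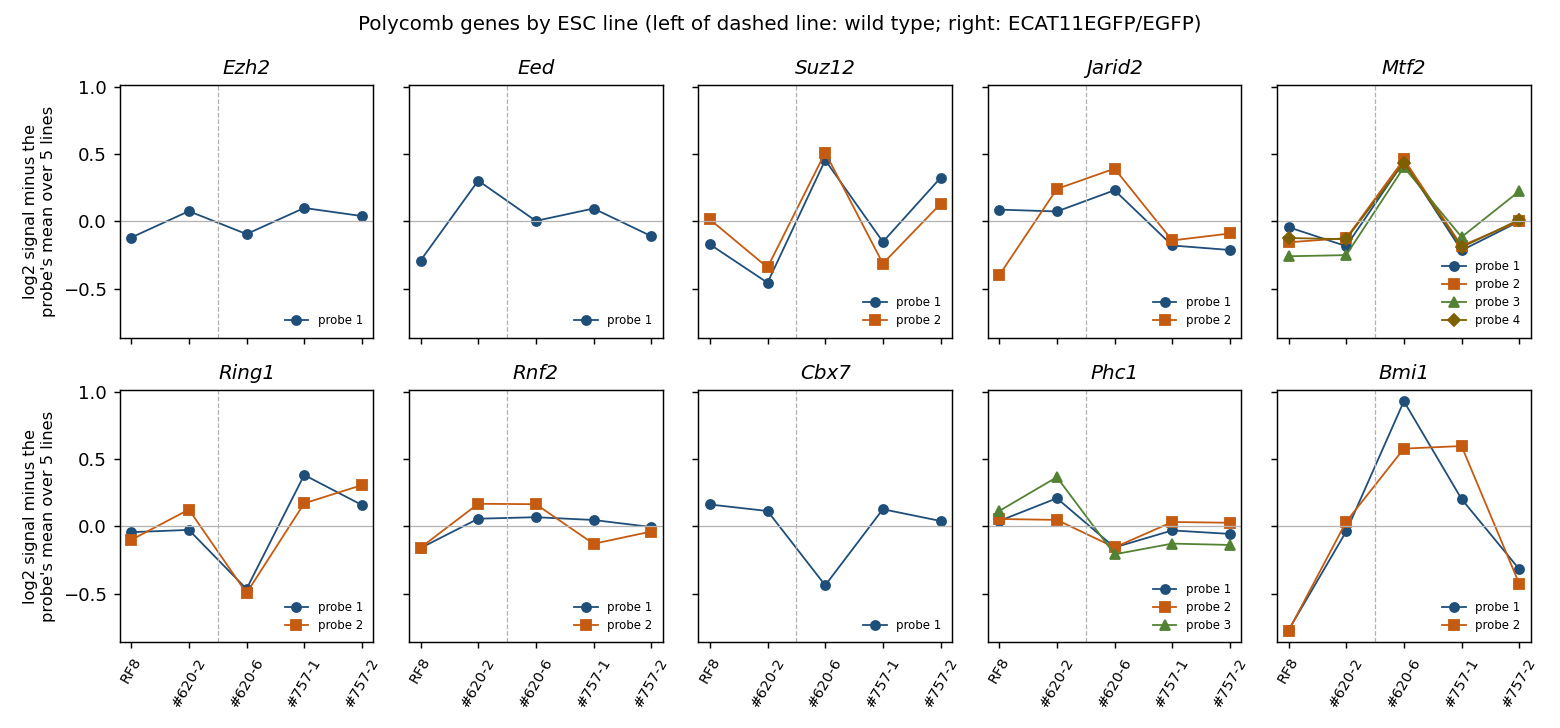
Log2 signal of each member probe minus that probe's own mean over the 5 lines (vertical axis), by ESC line (horizontal axis), with 1 panel per gene; each marker is 1 array, and the joining lines only connect values of one probe. Ezh2 and Rnf2 stay flat, Suz12 and Mtf2 peak in #620-6, Cbx7 and Ring1 dip there, and Bmi1 spans 1.70 with its brighter probe.

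The comparison of genotypes asks whether loss of ECAT11 changed the Polycomb genes. No member probe passed the call, an adjusted p under 0.05 with a change of over 2-fold in limma's test over 28972 probes kept, where 1 probe in all, 0.00345%, was called. Of the 20 member probes kept, 0 had an unadjusted p under 0.05, against 7.6% of all probes. The smallest adjusted p among them was 0.677. In 12 the ECAT11EGFP/EGFP mean was higher and in 8 lower. Their median log2 difference was 0.07, against -0.02 for all probes. The smallest p that an exact permutation of 2 lines against 3 allows is 0.1, and the number of arrays limits the precision.

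The intervals of this fit, which has no term for the slide, show how large a difference between the group means it left room for. They do not bound a genotype difference that a slide difference offsets. In 16 of the 20 probes the 95% confidence interval lay wholly within a 2-fold change either way, against 53.5% of all probes tested. The probes tested held a larger share of dim ones. Of them, 20617 of 28972 were well above background on all 5 arrays, against 19 of the 20 member probes. The part that this had in the 2 shares was not tested. The 4 member probes whose intervals reached beyond were both probes of Suz12 and both of Bmi1. For Ezh2 the log2 difference of ECAT11EGFP/EGFP minus wild type was 0.04 ± 0.16 (SE, 2 and 3 lines), with an interval of -0.38 to 0.46. For Eed it was -0.01 ± 0.23, from -0.62 to 0.60. For the brighter Rnf2 probe it was 0.09 ± 0.15, from -0.31 to 0.49.

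The largest difference was that of Bmi1, 0.68 ± 0.46, with an interval of -0.52 to 1.87 and a limma adjusted p of 0.848. It was 0.31 without RF8, 0.35 without #620-6 and 1.04 without #620-2, so its rank above Suz12 rested on single lines. The brighter Suz12 probe followed, apart from the second Bmi1 probe, at 0.52 ± 0.25, from -0.14 to 1.18 (adjusted p 0.748). In the other direction the dimmest Phc1 probe differed most, at -0.40 ± 0.16, from -0.81 to 0.02 (adjusted p 0.677). None of these passed the test. The genotype groups did not overlap in 2 probes with higher values in ECAT11EGFP/EGFP, 1 of Suz12 and 1 of Mtf2, which is 10% of the member probes against 11.4% of all probes. They did not overlap in the other direction in 3 probes, all of Phc1, 15.0% against 12.1% of all probes. Both shares were near the background. Under 4 other scalings the 3 Phc1 probes and the Mtf2 probe still did not overlap, while the Suz12 probe overlapped after quantile normalization. The Cbx7 probe joined those with lower values and no overlap, 4 of 20, under 3 of these scalings, quantile normalization, another percentile and the deposited table.

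**Figure D2:**
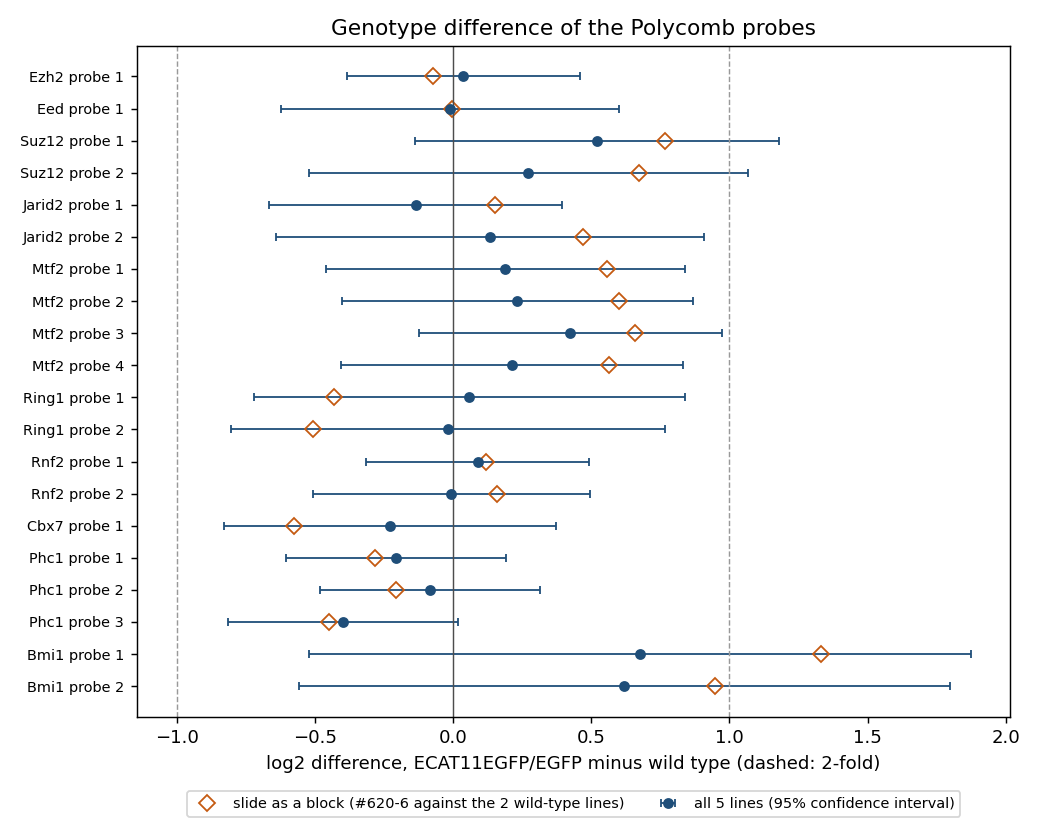
Log2 difference of ECAT11EGFP/EGFP minus wild type (horizontal axis) for each of the 20 member probes kept (vertical axis), as filled circles with 95% confidence intervals over all 5 lines, and as open diamonds with the slide as a block, where #620-6 alone is compared with the wild-type lines. Every interval includes 0, and those of Suz12 and Bmi1 reach past the dashed 2-fold line.

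Because #757-1 and #757-2 shared a slide with no wild-type line, the comparison within the first slide is that of #620-6 with RF8 and #620-2. This is 1 line against 2, and its SE rests on the spread between RF8 and #620-2 and between #757-1 and #757-2, which #620-6 is assumed to share. There the difference was 0.77 ± 0.31 for the brighter Suz12 probe, 0.60 ± 0.20 for Mtf2 probe 2, -0.58 ± 0.19 for Cbx7, -0.43 ± 0.21 for the brighter Ring1 probe and 1.33 ± 0.45 for the brighter Bmi1 probe. The Ring1 value turned sign from 0.06 with all lines. With the slide as a block, 0 member probes were called and 3, of Mtf2, Cbx7 and Bmi1, had an unadjusted p under 0.05, where 8.94% of all probes had one, and the smallest adjusted p of a member in limma was 0.540. Slide 2 held the ECAT11EGFP/EGFP group alone and gives no genotype value of its own. Lines #757-1 and #757-2 share the slide, the sex label, the strain label and the first part of their names, whose meaning the labels do not give. Whether lines that share a name part are related was not tested. The same things are shared by #620-2 and #620-6. Between these lines alone, with no test, the brightest probe of #620-6 minus that of #620-2 was 0.91 for Suz12, 0.63 for Mtf2, 0.97 for Bmi1, -0.55 for Cbx7, -0.44 for Ring1 and -0.37 for Phc1, and between -0.30 and 0.16 for the other 4 genes.

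Over the 5 lines, the 19 member probes measured on every array ranged from 0.21 (Phc1 probe 2) to 1.70 (Bmi1 probe 1) on the log2 scale. Their median range was 0.63, against 0.60 for the 20617 probes measured on every array. A range of over 1 was found in 1 of the 19, Bmi1, which is 5.26% against 23.5% of all probes. Ezh2 had a smaller range than all but 7.66% of probes and the brighter Rnf2 probe than all but 8.56%. Bmi1 had a wider range than 92.3% of probes. The wild-type lines lay further apart than the genotype means in 9 of the 20 kept probes, against 64.4% of all probes.

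**Figure D3:**
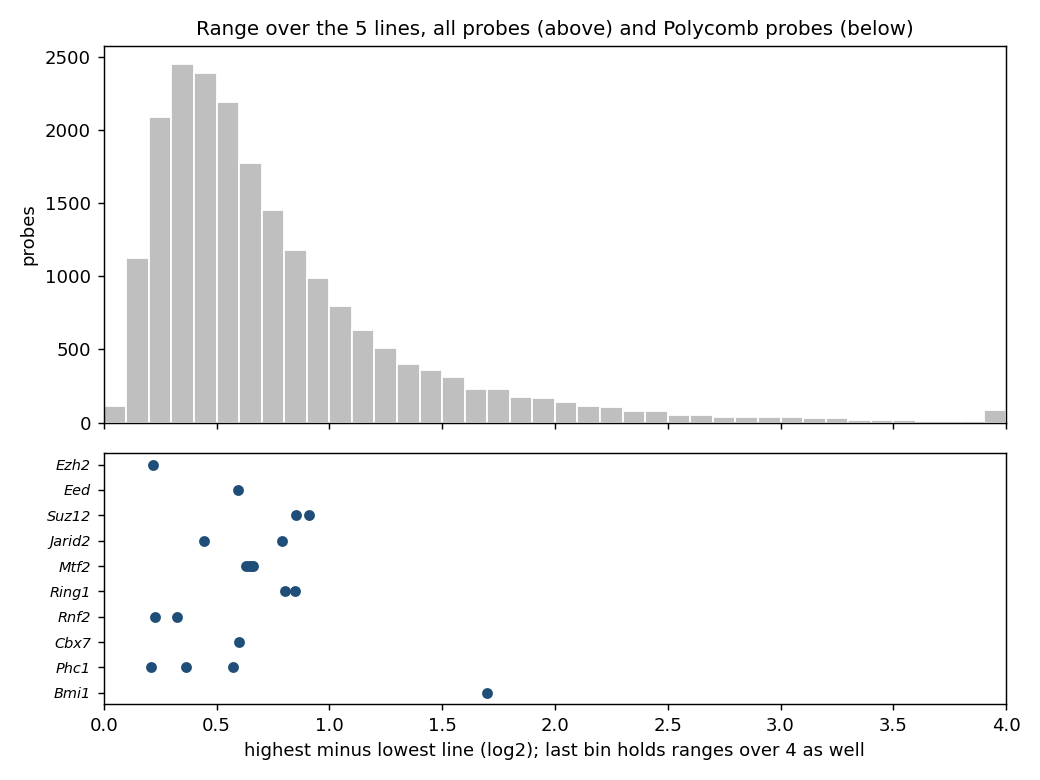
Number of probes (upper panel, vertical axis) by the range over the 5 lines, highest minus lowest log2 signal (horizontal axis), for 20617 probes, and below it the ranges of the 19 member probes by gene, each point 1 probe. Bmi1 at 1.70 is the only member past 1, and 8 member probes lie under the median of all probes, 0.60.

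The line that set the members' spread was #620-6, a pattern noticed after the values were seen and described here without a test. It was the highest of the 5 lines in 10 of the 19 member probes, where 20.3% of all probes had it highest, and the lowest in 6, against 26.7%. It was thus at an extreme in 16 of 19, against 47% of all probes. By gene and brightest probe, 8 of the 10 members had #620-6 at an extreme. It was highest for Suz12, Jarid2, Mtf2, Rnf2 and Bmi1 and lowest for Ring1, Cbx7 and Phc1. For Rnf2 its lead over #620-2 was only 0.01, the second probe put #620-2 highest, and RF8 was the line apart. Without #620-6, the median range of the 10 brightest probes was 0.28 on the log2 scale, against 0.60 with it, while over all probes the median range was 0.51 without it and 0.60 with it. Leaving out any other line kept the members' median range between 0.50 and 0.60. In absolute size, #620-6 differed from the wild-type mean by a median of 0.49 over the kept member probes and of 0.29 over all probes. RF8 and #620-2 differed by 0.21 over the members and 0.35 over all probes, and #757-1 and #757-2 by 0.16 and 0.20. The probes of one gene are not independent here, and the part that the fibroblast markers, high in #620-6 as well as in #620-2, had in this was not tested.

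Other subunits of PRC2 were examined as a list of 7 genes, all with a probe kept. Of 11 probes, 0 were called, 1 had an unadjusted p under 0.05 (9.09% against 7.6% of all probes), 8 were higher in ECAT11EGFP/EGFP and 3 lower, and the median log2 difference was 0.06. Groups did not overlap in 1 probe with higher values, 9.09% against 11.4% of all probes, and in 0 with lower values, against 12.1%. The exception was Phf19, a Polycomb-like protein related to Mtf2, with -0.41 in RF8, -0.72 in #620-2, 1.41 in #620-6, 1.38 in #757-1 and 1.94 in #757-2. Every ECAT11EGFP/EGFP line was thus above both wild-type lines by a wide gap. The log2 difference was 2.14 ± 0.25, from 1.49 to 2.80, a 4.42-fold higher mean, but the limma adjusted p over all probes was 0.285 and it was not called. Within the first slide the value of #620-6 lay 1.98 above the wild-type mean, and 1 line gives this value no check. The trophoblast marker sum was higher in the same 3 lines, as given above. Of the 7 trophoblast marker probes kept, 5 had a higher and 2 a lower mean in ECAT11EGFP/EGFP. Groups did not overlap in 1 of them with higher and 1 with lower values, 14.3% each against 11.4% and 12.1% of all probes. Ezh1, the other methyltransferase of PRC2, had -2.16 in RF8, -3.04 in #620-2, -2.68 in #620-6, -2.97 in #757-1 and -2.50 in #757-2. Its genotype groups overlapped, with both extremes in the wild-type lines.

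The other PRC1 subunits formed a list of 22 genes, 21 of them with a probe kept. Of 44 probes, 0 were called, 4 had an unadjusted p under 0.05 (2 higher and 2 lower in ECAT11EGFP/EGFP), which is 9.09% against 7.6% of all probes, and the median log2 difference was 0.13. Groups did not overlap in 9 probes with higher values, 20.5% against 11.4% of all probes, and in 6 with lower values, 13.6% against 12.1%. Scmh1, a Scm-type subunit of PRC1, had -2.42 in RF8, -2.02 in #620-2, -0.62 in #620-6, -1.46 in #757-1 and -1.27 in #757-2. The wild-type lines were lowest and #620-6 highest. The log2 difference of Scmh1 was 1.10 ± 0.32 (limma adjusted p 0.547).

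Cbx6, another CBX reader, went the other way, with 2.46 in RF8, 2.60 in #620-2, 2.06 in #620-6, 2.12 in #757-1 and 2.21 in #757-2, a difference of -0.40 ± 0.15 (limma adjusted p 0.653). Cbx2 had 0.73 in RF8, 0.44 in #620-2, 0.78 in #620-6, 0.87 in #757-1 and 1.07 in #757-2. Pcgf2, the closest relative of Bmi1, had -2.93 in RF8, -2.63 in #620-2, -2.68 in #620-6, -3.01 in #757-1 and -2.79 in #757-2. Pcgf2 thus stayed within 0.39 where the brighter Bmi1 probe spanned 1.70. Kdm2b, which brings a variant PRC1 to CpG islands, had 3 probes that did not agree. The brightest had 1.96 in RF8, 2.61 in #620-2, 2.68 in #620-6, 2.16 in #757-1 and 1.98 in #757-2, and its difference was -0.01 ± 0.32. The dimmest, which crosses an intron elsewhere in the gene, had -3.09 in RF8, -3.58 in #620-2, -4.26 in #620-6, -3.95 in #757-1 and, not well above background, -4.60 in #757-2, a difference of -0.93 ± 0.28 (limma adjusted p 0.565). Scml2, an X-linked Scm-type gene picked out after its values were seen, was high in 1 line alone. It had -2.29 in RF8, -1.24 in #620-2, 1.41 in #620-6, -1.66 in #757-1 and -2.45 in #757-2, and its other probes also put #620-6 highest.

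For Bmi1, the member with the widest range, the profiles most alike over the 5 lines were sought among 63 probes of the other Polycomb genes listed. The closest was a probe of Cbx8, another CBX reader, whose profile centred on its mean differed from that of Bmi1 by a root mean square of 0.24 on the log2 scale. It had -4.27 in RF8, -3.98 in #620-2, -2.77 in #620-6, -3.61 in #757-1 and -3.58 in #757-2. Next came 2 probes of Aebp2, a zinc finger subunit of PRC2, at 0.29 and 0.32. In each of these probes RF8 was lowest and #620-6 highest, as in Bmi1. They were chosen for likeness to Bmi1 over these same lines, so this is no independent result.

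Enzymes that oppose Polycomb, the H3 lysine 27 demethylases, the MLL-type methyltransferase genes and the H2A deubiquitinases, formed a list of 14 genes. Of 29 probes kept, 0 were called and 1 had an unadjusted p under 0.05, 3.45% against 7.6% of all probes, and the median log2 difference was 0.06. Groups did not overlap in 2 probes with higher values, 6.90% against 11.4% of all probes, and in 0 with lower values, against 12.1%. Kdm6a, an X-linked demethylase, had -0.29 in RF8, 0.43 in #620-2, 0.66 in #620-6, -0.13 in #757-1 and -0.25 in #757-2 with the probe that was measured. The higher values were those of the lines labelled female, 1 of each genotype. Kdm6b had 1.45 in RF8, 1.78 in #620-2, 1.47 in #620-6, 0.70 in #757-1 and 1.01 in #757-2. It was lowest in both lines of the second slide, and its difference was -0.55 ± 0.29. The 1 probe with an unadjusted p under 0.05 was a dim one of Kmt2c, well above background in #620-6 alone, at -4.98, so no fold is given.

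Known targets of Polycomb were taken as a list of 36 developmental genes, 27 of them with a probe kept. Of 32 probes, 0 were called, and 3 higher and 1 lower in ECAT11EGFP/EGFP had an unadjusted p under 0.05, 12.5% against 7.6% of all probes. Among the 3 higher was Isl1, well above background in #620-6 alone, so its p rests mostly on signals that were not measured. In the list, 15 probes had a higher and 17 a lower mean, and the median log2 difference was -0.06. Groups did not overlap in 4 probes with higher values, 12.5% against 11.4% of all probes, and in 3 with lower values, 9.38% against 12.1%. Cdkn2a, a cell cycle inhibitor locus that Bmi1 is known to repress, had -2.51 in RF8, -3.09 in #620-2, -2.09 in #620-6, -2.19 in #757-1 and -2.37 in #757-2. Its groups did not overlap, but the difference of 0.59 ± 0.24 had a limma adjusted p of 0.688. Gata3, a lineage regulator also active in trophoblast, had -2.06 in RF8, -2.42 in #620-2, 0.90 in #620-6, -0.42 in #757-1 and -0.63 in #757-2. Its difference was 2.19 ± 0.53 (limma adjusted p 0.481). The trophoblast marker sum was also higher in the ECAT11EGFP/EGFP lines, but not in the same order. That sum was 14.8 in #620-6, 14.2 in #757-1 and 15.9 in #757-2, and a link with Gata3 was not tested. Lhx2 had -2.64 in RF8, -2.86 in #620-2, -1.90 in #620-6, -1.83 in #757-1 and -2.46 in #757-2, a difference of 0.69 ± 0.26 (limma adjusted p 0.653).

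Lhx5, another LIM homeobox gene, had -3.76 in RF8, -2.77 in #620-2, -4.18 in #620-6, -4.09 in #757-1 and, not well above background, -4.86 in #757-2. It was the 1 target probe with a lower mean in ECAT11EGFP/EGFP and an unadjusted p under 0.05, with a difference of -1.11 ± 0.41 (limma adjusted p 0.648). Isl1 was well above background in #620-6 alone, at -4.82, so no fold between the genotypes is given. Olig1 and Olig2, neighbouring neural bHLH genes picked out after their values were seen, split the lines across genotype. Olig1 had -4.66 in RF8, 1.80 in #620-2, -4.71 in #620-6, 1.94 in #757-1 and 0.98 in #757-2. The brighter Olig2 probe was well above background in the same 3 lines, with 0.24 in #620-2, 0.80 in #757-1 and -0.88 in #757-2, and not in RF8 or #620-6. This split followed neither the genotype, nor the sex label, nor the slide, and no member probe separated the lines in that way by a comparable amount.

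**Figure D4:**
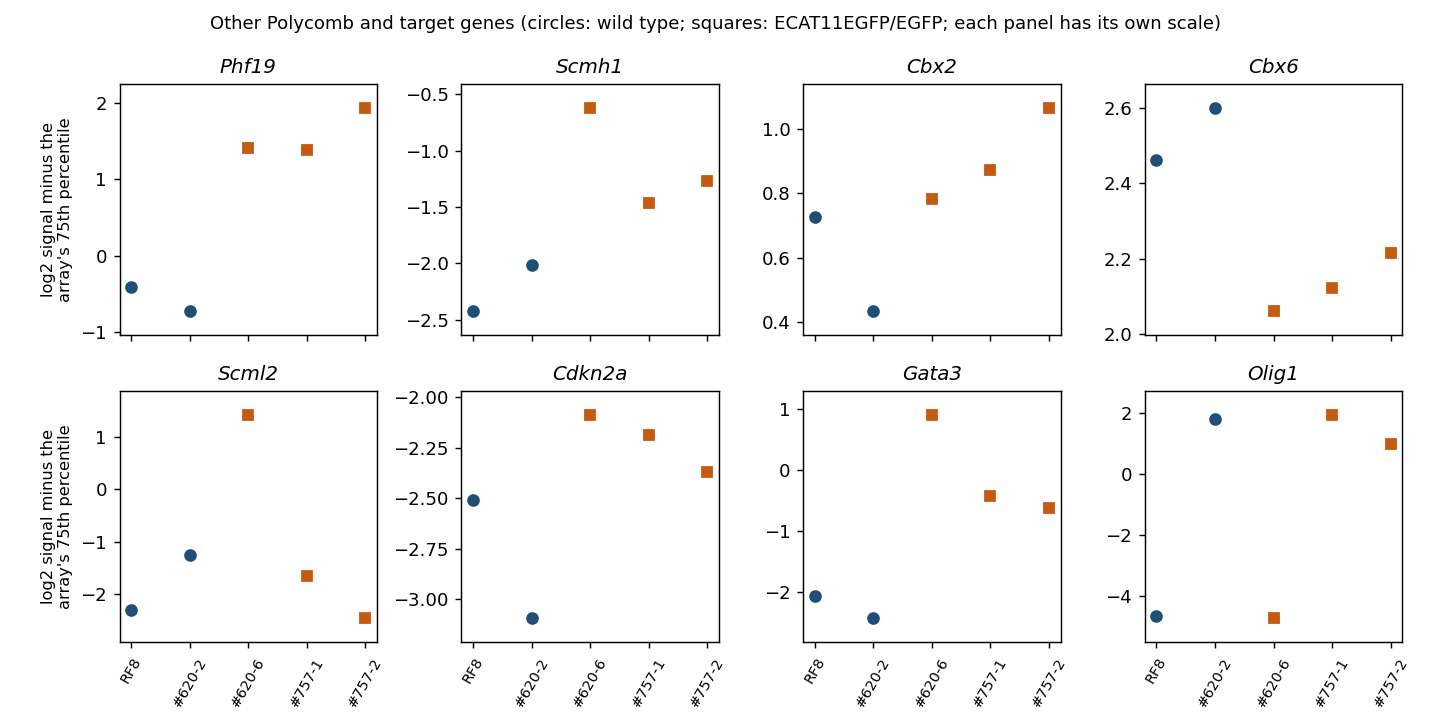
Log2 signal minus the 75th percentile of the array (vertical axis, a separate scale in each panel) by ESC line (horizontal axis) for 8 further Polycomb or target genes, 1 probe each; circles are wild-type and squares ECAT11EGFP/EGFP lines, each 1 array. Phf19 separates the groups with a log2 difference of 2.14, Scml2 stands out in #620-6 at 1.41, and Olig1 is low in RF8 and #620-6.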

How the data were processed

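Cy3-labelled total RNA of each of the 5 ESC lines was hybridized to an array. The authors extracted the arrays with Feature Extraction 9.5.3.1 per the file headers, and deposited a background-corrected intensity for each of 45018 spots, not normalized between arrays. A second table that the authors deposited gives log2 values per probe, shifted by a constant for each, used here as an alternative. How those constants were set is not given in the sources used here. The 1639 control spots and the 0.335% of spots marked as outliers were left out, each array was scaled to the 75th percentile of its intensities, and spots of one probe were averaged on the log2 scale. Probes called Present on at least 1 array were kept, 28972 in all. No spot was saturated, so dim probes, not bright ones, limit what was measured. A probe was well above background where the extraction's flag held for most of its unmarked spots.

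The genotype test was that of limma 3.58.1 (R 4.3.3), adjusted by Benjamini-Hochberg. The code was tested on simulated data. No fold is given where neither wild-type array measured a probe. Members were found by the name in the files. Genes of the lists were matched through RefSeq accessions or symbols. Named were all members, list genes at an unadjusted p under 0.05 with groups that do not overlap, and Ezh1, Cbx2, Pcgf2, Kdm2b, Kdm6a, Kdm6b and Cdkn2a whatever their values. One list gene that the rule names is not reported here. The members and lists were chosen with earlier results of these data known. Figures were drawn with matplotlib 3.10.9.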

Additional observations from a re-analysis of the deposited data

How the results depend on the processing

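The count of 0 called member probes, and of 0 called probes in each of the 4 other Polycomb lists, held in all alternatives, which were normexp background correction, quantile normalization, another percentile, the deposited table, marked spots kept, no filter, a stricter filter, the sex label as a covariate, the slide as a block, the methods' t-test and each line left out. Members named by accession in place of the file's name gave 0 calls too. The number of member probes at an unadjusted p under 0.05, 0 in the report, was 2 with normexp, 1 with the stricter filter, 3 with the slide as a block, 1 with the sex label, 1 with the methods' t-test and 0 to 2 with a line left out, and the largest of these was 2 without #757-1. The median range of the members was 0.28 to 0.60 with a line left out, lowest without #620-6. Of 160 log2 differences of the 10 members under alternatives, 14 changed sign, all of genes whose difference was small. Ezh2 turned to -0.0048 with normexp, -0.0169 with quantile normalization and -0.0722 with the slide as a block, and lay between -0.0609 and 0.14 with a line left out. Eed turned to 0.0343 with the sex label and lay between -0.31 and 0.29 with a line left out. Jarid2 turned to 0.15 with the slide as a block. Ring1 turned to -0.43 with the slide as a block and -0.0089 with the sex label, and lay between -0.12 and 0.30 with a line left out. Rnf2 lay between -0.0200 and 0.20 with a line left out. Between #620-6 and #620-2 alone, a comparison added after seeing the data, Ezh2 was -0.170, Jarid2 0.158 and Ring1 -0.439. Suz12 (0.38 to 0.77), Mtf2 (0.0054 to 0.56), Cbx7 (-0.58 to -0.0546), Phc1 (-0.29 to -0.12) and Bmi1 (0.31 to 1.33) kept their sign, with the values of Mtf2 and Cbx7 nearest 0 found without #620-6, and Phf19 stayed between 1.96 and 2.30. The median log2 differences of the lists lay between -0.02 and 0.23 for PRC2, 0.0036 and 0.25 for PRC1, -0.06 and 0.18 for the opposing enzymes and -0.22 and 0.52 for the targets, and the median of all probes was 0.12 without a filter against -0.02. The cause of these changes was not tested. No paired analysis over the groups, of 2 and 3 lines, was possible because the labels name no pairs. Signal over background limited the dimmer Bmi1 probe in #757-2.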
